A study of Mus musculus with 6 samples.

Results

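The 9 genes described here, Foxp1, Lhx1, Mecom, Nos1, Zeb2, Runx1, Onecut1, Onecut2 and Esrrg, are known from the division of spinal motor neurons into columns, pools and functional subtypes. They were chosen by symbol from the 24002 genes of the RNA-seq table, and all 9 were found in it. The cells were R1, a mouse embryonic stem cell line. Their stem cell medium held 15% serum replacement and 1000 U/ml LIF. Embryoid bodies were made from them by 48 h in hanging drops, moved to medium with retinoic acid and sampled at day 6. The labels give the dose as 0.5 mM, whereas micromolar doses are usual, so the unit may be wrong. RNA-seq of polyadenylated RNA covered 3 samples, and 3 ATAC-seq samples of the same condition were not used for these genes. All samples share this line and treatment, with no untreated or earlier sample, so the values are levels at day 6 and no change was tested.

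In the developing cord, motor neurons first share a common programme and then settle into columns along the body axis under the control of Hox genes. The medial column supplies axial muscle, the lateral column limb muscle, the preganglionic column the sympathetic ganglia and the phrenic column the diaphragm. Within a column they separate further into pools and into alpha motor neurons, which drive force-producing muscle fibres, and gamma motor neurons, which set the tension of muscle spindles. Several of the 9 genes also serve other cells, Lhx1 in spinal interneurons and Runx1 and Mecom in blood, so their RNA in a mixed culture cannot be given to a cell type. In bulk RNA, fewer cells of a type and less RNA per cell cannot be told apart.

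Of the 9 genes, 8 reached 1 FPKM in all 3 replicates, which is called expressed here, against 50.7% of all genes in the table. The same share is the background for each count of expressed list genes below. FPKM is a level per length of transcript and per mapped fragments, so levels of different genes are set side by side here. The sources used here do not say how transcript lengths were set, so shares and ratios between genes are approximate. Lhx1 was highest, followed by Esrrg, Foxp1, Onecut1, Mecom, Onecut2, Zeb2, Runx1 and Nos1, and Nos1 was the gene below the threshold. The median of the 9 means was 7.04 FPKM, against 1.31 FPKM over all genes. Of the 8 pairs of neighbours in this order, 7 had replicate ranges that did not overlap. The exception was Onecut2 and Zeb2, whose means of 5.78 and 5.55 FPKM lay within the spread of their replicates.

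**Figure D1:**
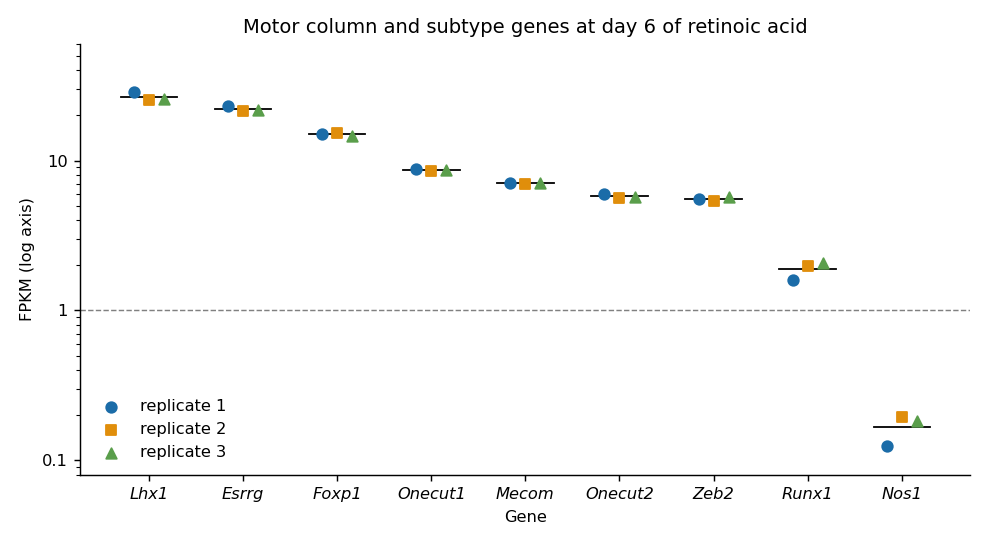
FPKM on a log axis for the 9 genes, ordered by mean, with a point for each of the 3 replicates, a black line at the mean and a dashed line at 1 FPKM. Replicates lie close together except for Runx1 and Nos1, and Nos1 alone lies below the dashed line, at 0.125, 0.195 and 0.184 FPKM.

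Genes of somatic motor neurons at large were present. All 8 generic motor neuron genes examined were expressed, with a median of 16.5 FPKM, from Slc5a7, the choline transporter, at 4.59 FPKM to Slc18a3, the vesicular acetylcholine transporter, at 61.5 FPKM. The mean of Mnx1, Isl1 and Lhx3, which encode homeodomain factors of somatic motor neurons, was 37.2, 37.2 and 35.4 FPKM in replicates 1, 2 and 3. FPKM in the whole table summed to between 477760 and 524717 per replicate. Read totals are unknown. Taking the most common ratio of low values between libraries as that of equal read numbers, replicate 1 was estimated as 1.56 times as deep as replicate 2 and 1.17 times as deep as replicate 3. The labels do not say that the replicates came from separate cultures, so their spread may be technical.

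Lhx1 encodes a LIM homeodomain factor that marks the lateral division of the lateral motor column and guides its axons into the dorsal limb. It stood at 28.8, 25.3 and 25.9 FPKM in replicates 1, 2 and 3, a mean of 26.7 ± 1.89 (SD, n = 3). Replicate 1 was the highest of the 3. Lhx1 lay at percentile 89.9 of all genes and reached 0.728 ± 0.0480 times the mean of Mnx1, Isl1 and Lhx3 in the same replicate. Its close relative Lhx5, which is active in spinal interneurons, stood at 15.9 FPKM, and Lhx1 made up 62.6% ± 2.29 of the summed FPKM of both. The LIM cofactor gene Ldb1 was higher, at 76.0 FPKM.

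Interneuron genes that accompany Lhx1 were present beside it. Of 7 genes of other Lhx1-bearing interneurons, 6 were expressed, with Pax2 at 17.9 and Slc32a1, the vesicular inhibitory transmitter transporter, at 12.0 FPKM. Evx2 at 0.684 and Lbx1 at 2.10 FPKM were the lowest. The summed level of the list was 45.7, 48.3 and 47.2 FPKM in replicates 1, 2 and 3. Of its 6 genes whose mean reached 1 FPKM, 3 were lowest and 3 highest in replicate 1. Among all genes with such a mean, 36.5% were lowest and 36.3% highest there. Of 5 genes of intermediate mesoderm, the kidney primordium where Lhx1 also acts, Gata3 and Pax8 were expressed, while its defining genes Osr1 and Wt1 stood at 0.117 and 0.288 FPKM. Pax8 is also among the 7 interneuron genes counted above. The intermediate mesoderm list summed to 13.6, 13.2 and 13.6 FPKM in replicates 1, 2 and 3. The part of these cells in the Lhx1 level was not tested.

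The window around the Lhx1 start is shown because a neighbouring gene on the other strand also starts in it. In RefSeq annotation (GRCm38.p6, another build than that of the deposited files), Lhx1os, a long noncoding RNA gene, lies 125 bases from Lhx1 without overlap. Within the window of 250 bases before and 50 after the start, at chr11:84525485-84525784 on the minus strand, Lhx1 starts at base 251 and Lhx1os, on the plus strand, at base 125. Capitals mark CpG dinucleotides, of which there are 31.
Lhx1: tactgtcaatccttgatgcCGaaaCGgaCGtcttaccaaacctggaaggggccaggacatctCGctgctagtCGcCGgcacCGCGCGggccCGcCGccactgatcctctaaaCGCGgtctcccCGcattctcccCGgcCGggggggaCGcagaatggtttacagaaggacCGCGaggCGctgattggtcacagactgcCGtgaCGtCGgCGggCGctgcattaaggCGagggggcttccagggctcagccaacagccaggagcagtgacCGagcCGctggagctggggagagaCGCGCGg
Lhx1os stood at 51.8, 50.6 and 51.0 FPKM, which is 1.92 ± 0.111 times Lhx1 in the same replicate. Like Lhx1 it was highest in replicate 1, by a smaller margin.

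Foxp1 encodes a forkhead factor that works with Hox proteins and is needed for the identity of lateral and preganglionic column neurons. It stood at 15.0, 15.2 and 14.7 FPKM in replicates 1, 2 and 3, a mean of 15.0 ± 0.264 (SD, n = 3), with no replicate set apart. This was 0.408 ± 0.00594 times the motor neuron mean and 0.314 ± 0.00572 times Lhx3, a gene kept on in the medial column. Among the Foxp genes, Foxp1 made up 49.7% ± 1.54 of the summed FPKM. Foxp4 followed at 12.1 and Foxp2 at 3.05 FPKM, while Foxp3, a gene of regulatory T cells, stood at 0.0343 FPKM. Foxp1 ranged from 14.7 to 15.2 and Foxp4 from 11.0 to 12.8 FPKM, so their replicates did not overlap.

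Other lateral column genes split by position along the axis. Aldh1a2, which encodes the retinaldehyde dehydrogenase that limb-level motor neurons make, stood at 11.0 FPKM, and Foxp1 was 1.36 ± 0.00966 times as high. Hoxc6 and Hoxc8, genes of the forelimb level, stood at 85.5 and 11.1 FPKM, whereas Hoxc10 and Hoxd10, genes of the hindlimb level, were near 0, Hoxc10 at 0.153 FPKM and Hoxd10 at 0, 0.0316 and 0.0477 FPKM in replicates 1, 2 and 3. The pool gene Etv4, an ETS factor, stood at 1.59 FPKM, with 2.00 in replicate 1, 1.45 in replicate 2 and 1.33 in replicate 3. Hoxd9 was at 0.923 FPKM. In all, 5 of 8 lateral column genes were expressed, against 50.7% of all genes in the table. Isl1, counted among them, also stands in the generic, medial and preganglionic lists.

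Mecom encodes a zinc finger factor best known from blood stem cells and leukaemia, and has been used as a marker of medial column neurons. It stood at 7.06, 6.99 and 7.05 FPKM in replicates 1, 2 and 3, a mean of 7.04 ± 0.0379 (SD, n = 3), the narrowest relative spread of the 9 genes. Its SD of log2(FPKM + 1) was at percentile 1.13 among the 1769 genes whose mean lay within 0.32 (log2) of its own. Mecom reached 0.148 ± 0.00584 times Lhx3 and made up 88.8% ± 0.620 of the summed FPKM of Mecom and its relative Prdm16. Prdm16 was below the threshold, at 0.827, 0.892 and 0.934 FPKM. The Mecom values carry up to 7 digits where most genes have at most 6, as in 149 of 24002 genes, and the sources used here do not say how such values were made.

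All 6 genes of the medial and hypaxial column list were expressed, from Etv1 at 5.71 to Lhx3 at 47.6 FPKM. All of them but Etv1 also stand in the generic motor neuron list, so this count is not separate from that one. Lhx4, the relative of Lhx3, stood at 13.3 FPKM. Of 12 blood and endothelial genes, 2 were expressed, Tal1 at 7.07 and Flt1 at 4.71 FPKM. The blood genes Gata1 and Gfi1b were listed at 0 in every replicate, and Ptprc, the CD45 gene, and Spi1 were listed at 0 in all but 1 replicate each. The summed level of that list was 11.9, 14.0 and 13.6 FPKM in replicates 1, 2 and 3. Of this list, Tal1 also marks V2b interneurons.

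Nos1 and Zeb2 have been used as markers of visceral motor neurons, and they lay far apart. Nos1 encodes neuronal nitric oxide synthase, made by preganglionic neurons. It stood at 0.125, 0.195 and 0.184 FPKM in replicates 1, 2 and 3, a mean of 0.168 ± 0.0375 (SD, n = 3), below the threshold in each. Replicate 1, estimated as the deepest library, was lowest. When the estimated depth ratios are applied, these values correspond to 1.00 times as many reads in replicate 1 as in replicate 2. Replicate 3 would then hold 1.249 times as many as replicate 2. The depth ratios rest on taking a common ratio of low values as that of equal read numbers, so no read number of Nos1 is established. Why replicate 1 was lowest was not tested. The other synthase genes were also low, with Nos2 at 0.131 FPKM. Nos1ap, which encodes an adaptor of the Nos1 protein, was expressed at 2.94 FPKM.

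The Nos1 window, at chr5:117866589-117866888 on the plus strand, is shown as that of the lowest gene, with 6 CpG dinucleotides in capitals against 31 in the Lhx1 window.
Nos1: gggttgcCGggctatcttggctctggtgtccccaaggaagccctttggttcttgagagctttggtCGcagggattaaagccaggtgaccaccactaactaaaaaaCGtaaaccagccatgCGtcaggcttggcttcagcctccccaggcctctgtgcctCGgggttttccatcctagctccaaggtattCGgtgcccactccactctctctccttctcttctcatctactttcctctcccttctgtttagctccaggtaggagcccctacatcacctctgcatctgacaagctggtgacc

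Zeb2 encodes a zinc finger repressor that acts in neural crest, glia and migrating interneurons. It stood at 5.57, 5.35 and 5.72 FPKM in replicates 1, 2 and 3, a mean of 5.55 ± 0.189 (SD, n = 3). Its relative Zeb1 was higher in every replicate, at 17.5, 15.7 and 16.2 FPKM, so Zeb2 made up 25.2% ± 0.938 of their sum. Both proteins recruit the corepressors Ctbp1 and Ctbp2, whose genes stood at 110.6 and 32.3 FPKM. Zeb2os, annotated within Zeb2, was at 1.38, 1.68 and 2.02 FPKM. The sources used here do not say whether counting used strand, and without it the reads of these overlapping genes cannot be told apart. Apart from Zeb2 and Onecut2, each of the 9 genes had a higher mean than the close relatives examined for it, those drawn in the plot of family levels.

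All 3 other preganglionic list genes were expressed. Smad1, an effector of BMP signals, stood at 28.2 and Isl1 at 17.6 FPKM, and Hoxc9, which sets thoracic identity, at 2.93, 2.34 and 2.72 FPKM. The phrenic column genes were also all expressed, Hoxa5 at 149.9, Pou3f1 at 48.4, Hoxc5 at 30.7 and the adhesion gene Alcam at 6.14 FPKM. Expression of these list genes does not show that preganglionic or phrenic neurons were present. Of 6 genes of neural crest and Schwann cells, in which Zeb2 is also active, 2 were expressed, Sox10 at 21.1 and Foxd3 at 13.0 FPKM. Foxd3 is also counted below among the genes of V1 and Renshaw interneurons. The crest genes Tfap2a and Snai2 stood at 0.126 and 0.112 FPKM. The summed level of these 6 was 34.6, 36.2 and 35.7 FPKM in replicates 1, 2 and 3. Their part in the Zeb2 level was not tested.

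**Figure D2:**
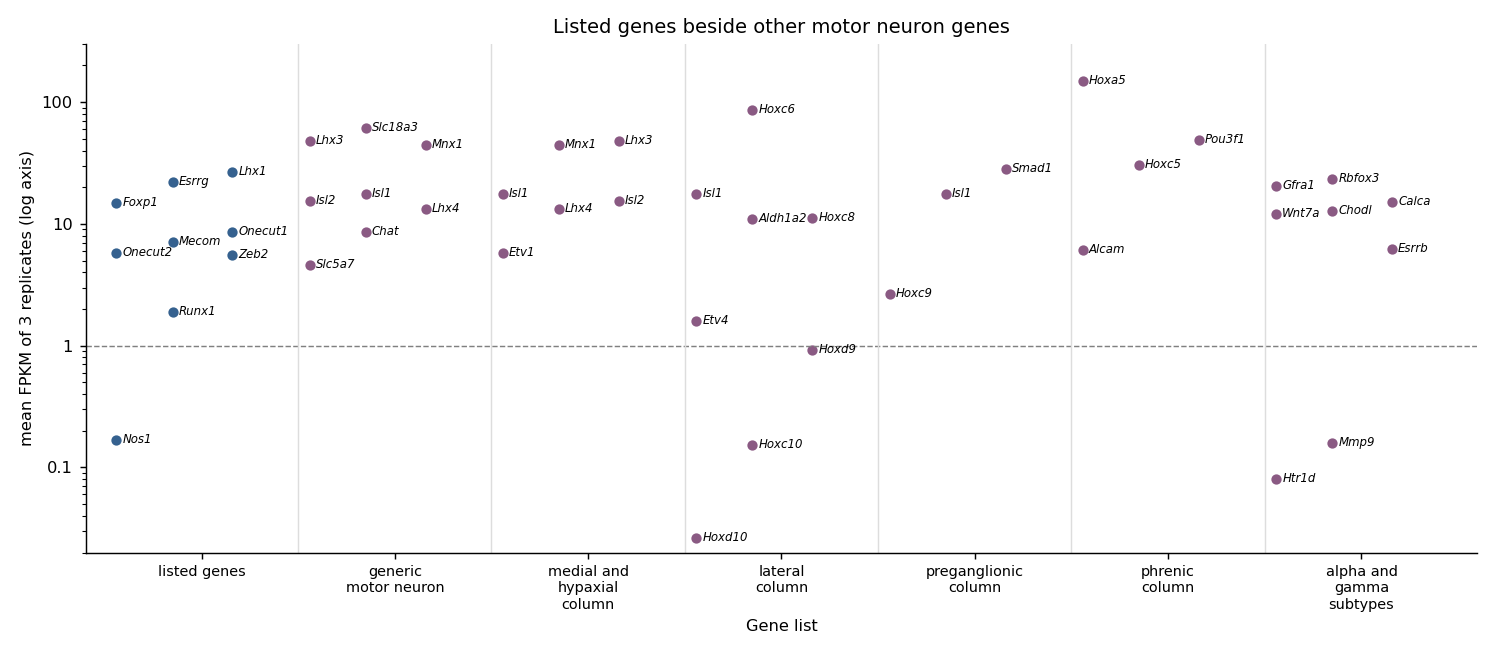
Mean FPKM of 3 replicates on a log axis for the 9 genes, in blue at the left, and for 6 lists of motor neuron genes, in purple, with a dashed line at 1 FPKM. Isl1 and several others stand in more than 1 list. The generic, medial, preganglionic and phrenic lists lie wholly above the line, while Hoxd9, Hoxc10, Hoxd10, Mmp9 and Htr1d lie below it.

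Onecut1 and Onecut2 encode cut-homeodomain factors that keep Isl1 on in young motor neurons and also act in Renshaw cells, liver and pancreas. Onecut1 stood at 8.77, 8.50 and 8.70 FPKM in replicates 1, 2 and 3, a mean of 8.65 ± 0.142 (SD, n = 3). Onecut2 stood at 6.02, 5.64 and 5.68 FPKM, a mean of 5.78 ± 0.209. Onecut1 was above Onecut2 in every replicate, by a ratio of 1.498 ± 0.0385. The remaining member of the family, Onecut3, stood at 5.06, 4.62 and 4.90 FPKM. All 3 family members were expressed, with shares of the summed FPKM of 44.9% ± 0.614 for Onecut1 and 30.0% ± 0.443 for Onecut2.

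The Onecut1 window, at chr9:74861671-74861970 on the plus strand, is shown as the most CpG-rich among the genes with a single window, with 38 CpG dinucleotides in capitals.
Onecut1: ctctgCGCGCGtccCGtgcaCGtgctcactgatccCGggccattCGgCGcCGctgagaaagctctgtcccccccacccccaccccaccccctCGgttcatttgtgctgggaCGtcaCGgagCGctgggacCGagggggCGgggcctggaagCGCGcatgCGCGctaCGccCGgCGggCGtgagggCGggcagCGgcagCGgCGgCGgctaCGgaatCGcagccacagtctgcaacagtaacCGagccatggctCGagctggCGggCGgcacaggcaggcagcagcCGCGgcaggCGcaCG

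Of 6 genes of V1 and Renshaw interneurons, 5 were expressed, with Pax2 at 17.9, Lhx5 at 15.9 and En1 at 5.20 FPKM, and the Renshaw cell receptor gene Chrna2 lowest at 0.172 FPKM. Their summed level was 54.4, 58.6 and 55.6 FPKM in replicates 1, 2 and 3. Of 7 liver and pancreas genes, Sox9, Prox1, Hnf4a and Foxa3 were expressed. Of the defining genes, Alb, of liver, was listed at 0 in every replicate, and Pdx1 and Ptf1a, of pancreas, in replicates 2 and 3. The summed level of that list was 47.1, 47.0 and 47.0 FPKM, most of it Sox9, which neural progenitors also use, at 38.3 FPKM.

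Esrrg encodes an orphan nuclear receptor, related to the oestrogen receptors, that marks gamma motor neurons in the mouse. It stood at 23.1, 21.3 and 21.8 FPKM in replicates 1, 2 and 3, a mean of 22.1 ± 0.933 (SD, n = 3), highest in replicate 1. This was 0.603 ± 0.0265 times the mean of Mnx1, Isl1 and Lhx3, second to Lhx1 among the 9 genes. Its relatives Esrra and Esrrb stood at 12.8 and 6.17 FPKM, and Esrrg made up 53.7% ± 0.319 of the family sum. Ppargc1a, a coactivator of these receptors, was at 1.70 FPKM.

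Some genes known from gamma and some known from alpha motor neurons were expressed, which does not show that either subtype was present. Of the genes known from gamma motor neurons, Gfra1, a GDNF receptor gene, stood at 20.4 and Wnt7a at 12.0 FPKM, while Htr1d, a serotonin receptor gene, was at 0.166 in replicate 1, listed at 0 in replicate 2 and at 0.0750 FPKM in replicate 3. Of the genes known from alpha motor neurons, Rbfox3, which encodes NeuN, stood at 23.6, Calca at 15.1 and Chodl at 12.8 FPKM, while Mmp9 was at 0.158 FPKM. Esrrg was 0.938 ± 0.0166 times Rbfox3 and 1.08 ± 0.0383 times Gfra1. In all, 6 of these 8 subtype genes were expressed, against 50.7% of all genes in the table. Esrrb, on the same list, is also a pluripotency gene.

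**Figure D3:**
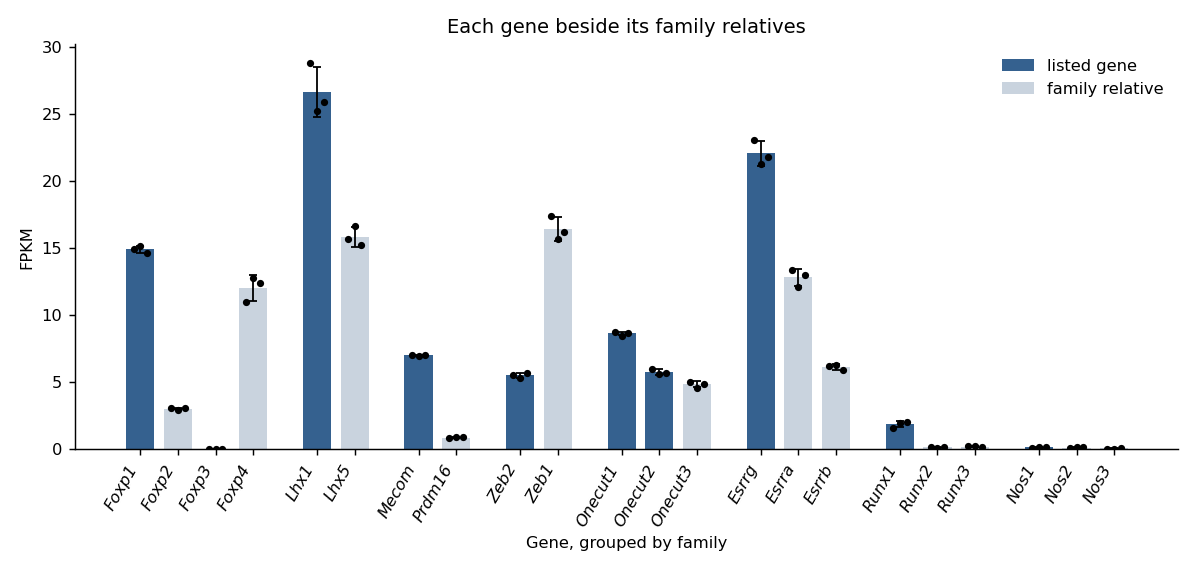
FPKM of each of the 9 genes (dark bars) beside family relatives (light bars). Onecut2 stands in the Onecut1 group. Bars are means of 3 replicates, error bars are SD and points are replicates. Zeb2, at 5.55 FPKM, stands below its relative Zeb1, at 16.5 FPKM.

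Runx1 encodes a DNA-binding factor of blood formation that also marks subsets of cervical motor neurons. It stood at 1.60, 1.99 and 2.06 FPKM in replicates 1, 2 and 3, a mean of 1.88 ± 0.247 (SD, n = 3). Replicate 1 was lowest, at 0.791 times the mean of the other replicates. Runx1 was 0.0516 ± 0.00773 times the motor neuron mean. Runx2 and Runx3, the factors of bone and of proprioceptive neurons, were below the threshold at 0.162 and 0.214 FPKM, and Runx1 held 83.2% ± 3.32 of the family sum. Cbfb, the shared partner of Runx proteins, stood at 18.7 FPKM.

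Runx1 has 2 annotated start windows of unlike composition, shown because a gene-level FPKM does not say which start was used. Window 1, at chr16:92826025-92826324, holds 2 CpG dinucleotides, and window 2, at chr16:92697280-92697579, holds 35, both on the minus strand and with CpG in capitals. Window 1 has 2 matches to TGTGGT, the core of the Runx motif, counting both strands, and window 2 has 0.
Runx1 window 1: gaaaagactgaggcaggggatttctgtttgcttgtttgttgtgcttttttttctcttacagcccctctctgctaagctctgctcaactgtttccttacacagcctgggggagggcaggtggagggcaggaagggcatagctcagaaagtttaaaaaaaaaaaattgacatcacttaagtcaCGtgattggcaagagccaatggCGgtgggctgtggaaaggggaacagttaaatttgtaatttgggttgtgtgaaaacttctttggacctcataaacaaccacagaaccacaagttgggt
Runx1 window 2: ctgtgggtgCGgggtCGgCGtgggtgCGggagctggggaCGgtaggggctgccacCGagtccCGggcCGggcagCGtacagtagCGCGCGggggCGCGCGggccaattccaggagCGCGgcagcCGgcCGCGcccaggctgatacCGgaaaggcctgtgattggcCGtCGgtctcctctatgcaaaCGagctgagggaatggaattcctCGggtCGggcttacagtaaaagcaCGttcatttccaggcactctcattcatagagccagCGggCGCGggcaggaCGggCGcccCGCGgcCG

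The Runx1 SD of log2(FPKM + 1) lay at percentile 67.6 among genes of like level. Most of the extraembryonic endoderm genes examined were, like Runx1, lowest in replicate 1. For the 14 list genes whose mean reached 1 FPKM, replicate 1 was the lowest for 13, against 36.5% of all genes with such a mean. The list was written with earlier results of these data known, so this count is a description only. The summed level of the 15 list genes was 512 FPKM in replicate 1, 705 in replicate 2 and 712 in replicate 3. Of the defining genes, Gata4 stood at 10.5, 15.6 and 16.7 FPKM and Sox17 at 5.47, 7.96 and 8.23 FPKM in replicates 1, 2 and 3. Replicate 1 over the mean of the others was -0.34 (log2) for Runx1 and had a median of -0.53 for the list. Flt1, of the blood and endothelial list, was also lower there, at 3.47, 5.47 and 5.20 FPKM. Tal1, the other expressed gene of that list, was not, at 7.15, 7.23 and 6.83 FPKM. The part of extraembryonic endoderm, blood or endothelial cells in the Runx1 level was not tested.

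Of the 8 expressed genes among the 9, only Runx1 was lowest in replicate 1, against 36.5% of all genes whose mean reached 1 FPKM. Lhx1, Mecom, Onecut1, Onecut2 and Esrrg were highest there, 5 of the 8 expressed genes, against 36.3% of all genes whose mean reached 1 FPKM. For Mecom and Onecut1 the differences from the other replicates were small, 0.00799 and 0.0277 (log2), against 0.17 for Lhx1, 0.10 for Esrrg and 0.09 for Onecut2. Generic motor neuron genes had a median of 0.03. Among genes of like level, the SD of log2(FPKM + 1) was at percentile 88.0 for Lhx1, 67.6 for Runx1 and 59.6 for Esrrg, and under 30 for the other 6, with Nos1 at 29.0.

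**Figure D4:**
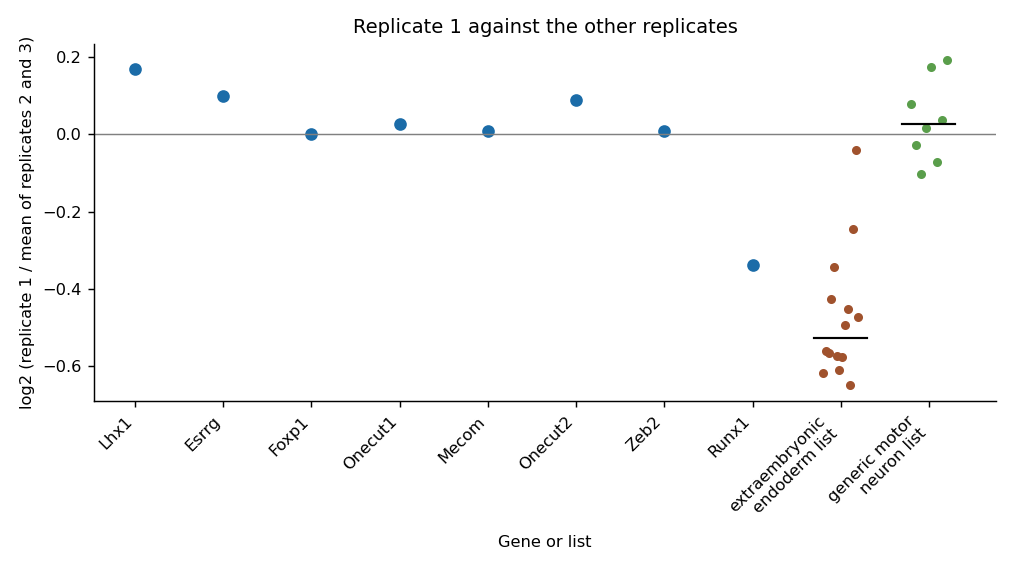
Log2 of replicate 1 over the mean of replicates 2 and 3 for the 8 expressed genes (blue) and for each gene of the extraembryonic endoderm list whose mean reached 1 FPKM (brown) and of the generic motor neuron list (green), with black lines at list medians. Among the blue points, Runx1 is lowest at -0.34 and Lhx1 highest at 0.17. The endoderm median is -0.53, with genes from -0.65 (Foxa2) to -0.04 (Afp).

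Among 107 genes of the 16 lists, the nearest to each of the 9 genes was sought by Euclidean distance in log2(FPKM + 1) over the 3 replicates. Foxp1 lay nearest to Calca (0.0885) and Isl2, Onecut1 to Chat (0.0996) and Gata3, Esrrg to Rbfox3 (0.158) and Gfra1, and Lhx1 to Smad1 (0.202) and Rbfox3. Mecom lay nearest to Tal1 (0.0611) and Gad1, Zeb2 to Etv1 (0.0797) and Prox1, and Onecut2 to Etv1 (0.0875) and Alcam. Runx1 lay nearest to Hnf4a (0.180), an endoderm gene, and Lbx1, and Nos1 to Emx2 (0.00595) and Mmp9. With replicates of a single condition, this measure reflects mainly the level.

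RefSeq held start windows for 8 of the 9 genes, all but Onecut2, with 18 windows in all. The number of CpG dinucleotides per window had a median of 15.5, against 7 over 32841 windows of 27018 genes. Taking for each gene its window with most CpG, 7 of 8 were CpG island-like (GC of at least 50% and an observed over expected CpG ratio of at least 0.6), with Nos1 the exception. The same held for 77.6% of 9178 expressed genes and for 14.7% of 7643 other genes of the table. Foxp1 spanned the widest range, from 5 to 44 CpG over 3 windows, and Esrrg the narrowest among genes with several, from 15 to 22 over 4.

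**Figure D5:**
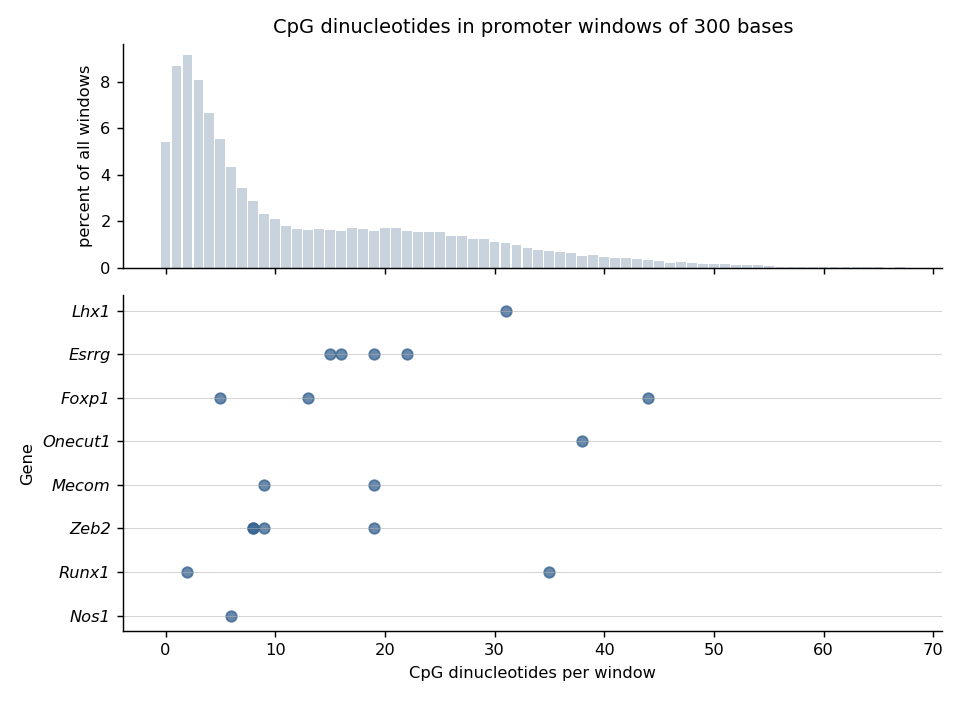
Number of CpG dinucleotides per promoter window of 300 bases. The upper panel gives the percent of all 32841 windows at each number, and the lower panel gives each window of the 8 genes with a sequence, ordered by level in RNA from Lhx1 down to Nos1. Runx1 has windows of 2 and 35, Foxp1 spans 5 to 44, and the single Nos1 window holds 6.

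Each motif core searched was found in at most 1 of these windows. On both strands, TATAAA was found in 1 of 18 windows, of Esrrg, against 13.6% of all windows. ATTGAT, the core bound by Onecut factors, was found in 1, of Mecom, against 7.54%, and AGGTCA, a core bound by nuclear receptors, in 1, of Mecom, against 16.3%. TGTGGT was found in 1, window 1 of Runx1, against 16.8%. AAGGTCA, bound by oestrogen-related receptors and holding AGGTCA within it, and GTAAACA, bound by forkhead factors, were found in none, against 4.72% and 3.65% of all windows. Of the 4 Zeb2 windows, 2 overlap each other. A match is a description of the letters and not a site of binding.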

How the data were processed

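RNA was measured in 3 samples, grouped and numbered by their titles. The header of the deposited table names no unit. Its values were read as FPKM because the submitters' processing notes name Cufflinks, beside Bowtie and the build mm9. The sources used here give no version, setting or scaling between libraries. The ATAC-seq regions were not used, as no annotation of their build was at hand.

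Levels are given per replicate with mean and SD, without a test, since all samples share a condition. Log values use a pseudocount of 1, which understates differences of low genes. Relative depth is the most common ratio of values between 0.001 and 0.1 FPKM (tolerance 0.004 in natural log), taken as that of equal read numbers. It was tried on simulated counts in which each gene had the same length in both libraries. That cannot show whether the deposited values behave so, and the depth ratios remain estimates. Absolute depth is unknown, so no counting interval is given, and an exact 0 can be a failed estimate. Promoter windows are RefSeq sequences of GRCm38.p6, counted with Python 3.11.15 and pandas 2.3.3.

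The members and gene lists were chosen with earlier results of these data known. Named are the 9 members, their relatives and cofactors, genes of the motor column lists, the highest, lowest and defining genes of other lists and the 2 nearest list genes of each member. Lhx1os, Zeb2os and some further list genes were named after their values were seen. Some list genes are not reported here. Alternatives changed the threshold (0.5 or 5 FPKM), the pseudocount (0.1), the scaling (upper quartile), the ranges (2 SD) and the filter on genes at 0, or left out each replicate.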

Additional observations from a re-analysis of the deposited data

How the results depend on the processing

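The number of expressed genes among the 9 was 8 at 0.5 FPKM, under upper quartile scaling and with each replicate left out, and 7 at 5 FPKM, where Runx1 and Nos1 lay below. Over all genes the shares were 54.4% at 0.5, 50.7% at 1 and 35.7% at 5 FPKM. Of the 30 genes of the generic motor neuron, column and subtype lists together, 25 were expressed at 1 FPKM, 26 at 0.5 and 22 at 5. Neighbours set apart in the order numbered 7, between 7 and 8 with a replicate left out, and 6 with ranges of 2 SD. The median percentile of the 9 genes was 68.5 among all symbols and 58.9 among symbols above 0 in a replicate. Genes with an SD at or above the median of genes of like level numbered 3, and between 1 and 4 with a replicate left out, with 1 without replicate 1. The median CpG number was 15.5 over the 18 windows of these genes and 26.5 with 1 window per gene, which was chosen after the data were seen. With 1 window per gene, the median was 8 over all genes and 23 over expressed genes. The difference of replicate 1 from the others was near 0 for Foxp1 (0.00247 on the log2 scale; 0.0281 without replicate 2 and -0.0228 without replicate 3) and Zeb2 (0.00972; -0.0384 without replicate 2 and 0.0595 without replicate 3), so neither has a direction. The causes were not tested. No paired analysis was possible because the RNA-seq and ATAC-seq samples hold different measurements and no groups were compared. Unknown read totals limit what can be said of Nos1 and of genes near 0.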
